A study of Erythranthe pardalis x Erythranthe guttata and Erythranthe pardalis with 20 samples.

Results

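Hybrid Mimulus seeds collected 4 days after pollination (DAP) were compared with unfertilized ovules, using 8 of the 20 libraries of the series. These are 3 libraries labelled as 4 DAP seeds and 5 labelled as 0 DAP ovules. The seeds came from flowers of the inbred M. pardalis line SEC39, of a selfing species, pollinated with the inbred M. guttatus line CSS4. The ovules came from SEC39 flowers that had not been pollinated. Every ovule library and the maternal part of every seed library thus have the SEC39 genotype. The libraries of 2, 6 and 8 DAP seeds of the same cross entered the shared estimate of spread and are given where a gene is followed over time. Whole ovules and whole seeds were shaken out of sectioned ovaries and fruits. A seed library therefore holds embryo, endosperm and maternal seed coat together and any library may hold some placenta. The labels call each library a pool of ovaries or fruits from several plants. In the study's methods, each of the 3 seed libraries and ovule replicates 1 and 2 came from 1 maternal plant, and ovule replicates 3 to 5 were pooled over plants. In the fit of all 20 libraries the p-values below measure a spread between such pools that is shared over all ages. It is not the spread of the ovule or 4 DAP pools alone. Only this direction of the cross was sequenced, and age, pollination and the paternal genome change together between the groups and cannot be told apart.

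An ovule holds the embryo sac, with the egg cell and the central cell, wrapped in maternal integuments. At double fertilization the egg gives the embryo and the central cell gives the endosperm, the tissue that draws nutrients from the mother and feeds the embryo, while the integuments become the seed coat. In Mimulus the endosperm is cellular from its earliest divisions, and it sends haustoria into the maternal tissue. In angiosperms at large, genes of the egg cell are shut down after fertilization, type I MADS-box genes act in the central cell and young endosperm, and the expanding seed remodels its walls and starts transport of sugars.

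Of 28140 genes listed, 20242 passed a filter of more than 1 CPM in at least 3 libraries. CPM is a gene's count scaled to a common library total, and normalized CPM uses totals scaled by the trimmed mean of M-values (TMM). Of the genes tested 4280 (21.1%) differed between 4 DAP seeds and ovules at a Benjamini-Hochberg adjusted p below 0.01 in edgeR's quasi-likelihood test. In 4 DAP seeds 2257 genes were higher (11.2% of genes tested) and 2023 were lower (9.99%). These percentages are the background for every count of members below, and the median log2 fold change over all genes tested was -0.07. Many list members come from tables the study selected on these samples. Such members can exceed this background through that selection alone. At least an 8-fold difference was reached by 759 of the genes that were higher and 441 of those that were lower, and at least a 64-fold difference by 251 and 94. The genes called higher held 223732 to 233692 normalized CPM in the 4 DAP libraries, against 44000.3 to 53703 in the ovule libraries. The genes called lower held 35964 to 40458 in the 4 DAP libraries, against 102539 to 181914 in the ovule libraries. Both sets were chosen by their difference in these libraries, so the direction of the sums was fixed by the choice and only their size is described. The count of calls fell to 2807 without 4 DAP replicate 1, where 1148 genes were lower, and to 2692 without replicate 3, where 1052 were lower. Without replicate 2 it was 2880, with 1167 lower.

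Depth was 13268485 to 16529554 counts in the 4 DAP libraries and 7588155 to 13210974 in the ovule libraries. Median SDs over genes, on the log2 scale, were 0.174 between 4 DAP libraries and 0.560 between ovule libraries, so the seed values carried the smaller error. Ovule replicates 3 to 5 carry library numbers above 14, and all 4 DAP libraries and ovule replicates 1 and 2 carry numbers from 1 to 14. The library series named below is this division by number alone. Whether the libraries were prepared apart is not stated in the sources used here. Among ovules the division is also that of replicates pooled over plants from those of 1 plant, and the 2 cannot be told apart there. Migut.L01172, a homologue of the carpel gene CRC, had 0, 0 and 0.0605 normalized CPM in 4 DAP seeds, against 0, 0.368, 0.791, 8.86 and 31.6 in ovules, so ovule replicates 4 and 5 carried the most of this carpel marker. Summed markers fixed for other tissues were 605 to 825 normalized CPM in 4 DAP seeds and 394 to 852 in ovules for green tissue, and 20.6 to 30.6 in 4 DAP seeds against 8.52 to 10.8 in ovules for the stamen and petal genes AP3 and PI, of which Migut.A00326 (PI) was at most 0.182 in 4 DAP seeds. The marker sums for endosperm were 7.75 to 8.17 in 4 DAP seeds against 0.190 to 2.62 in ovules, for seed coat flavonoid genes 308 to 411 in 4 DAP seeds against 63.04 to 72.4 in ovules, and for integuments 11.1 to 13.3 in 4 DAP seeds against 15.8 to 33.4 in ovules. The endosperm markers were the ZHOUPI homologue and homologues of AGL62. They left out the AGL62 homologue Migut.B00480, which went the other way (log2 fold change -6.36), so their sum does not stand for all AGL62 homologues. The list of endosperm regulators used below, which shares only the ZHOUPI homologue with these markers, summed to 14.3 to 34.8 in 4 DAP seeds and 0.775 to 35.1 in ovules, with overlap, most of it from the beta-galactosidase homologue Migut.N01317 in the highest ovule library. The part of other tissues in the results was not tested. Counts from libraries 1 to 14 alone, without ovule replicates 4 and 5, or with the maternal plant as a block are given with the lists or gathered after them, where they moved a count by more than 1.5 times.

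Genes annotated with the DUF1278 domain of the egg cell-secreted EC1 family, small cysteine-rich proteins that the Arabidopsis egg cell releases to activate sperm, were at or near 0 in 4 DAP seeds. Of 7 listed members 6 were tested, and all 6 were lower (median log2 fold change -5.76, against -0.07 over all genes). The 6 come from tables the study selected on these samples, so the count is not independent evidence of its direction. The remaining member, Migut.B00607, had no count in any of the 8 libraries. Migut.H02470 had 0.155, 0.132 and 0.121 normalized CPM in 4 DAP seeds, against 59.6, 19.9, 21.1, 51.2 and 37.9 in ovules (log2 fold change -8.02 ± 0.999 SE, edgeR adjusted p = 9.46e-06). The lowest ovule library lay far above the highest 4 DAP library. Migut.I00378 followed with 0.0516, 0.132 and 0.182 normalized CPM in 4 DAP seeds, against 36.9, 16.3, 11.9, 22.3 and 30.9 in ovules (log2 fold change -7.52 ± 1.01 SE, edgeR adjusted p = 9.37e-06). Together the 7 genes summed to 0.726 to 1.34 normalized CPM in 4 DAP seeds, against 56.5 to 141 in ovules. In RNA of whole ovules and seeds, fewer cells of a type and less RNA per cell cannot be told apart. At 2 DAP Migut.H02470 was already at 2.83 ± 1.87 (SD, n = 4) and at 6 DAP at 0.240 ± 0.479 (SD, n = 4).

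Type I MADS-box genes, transcription factors that in Arabidopsis act in the female gametophyte and endosperm, moved in both directions. Of 18 members 15 were tested, of which 8 were higher, 2 were lower and 5 did not pass (median log2 fold change 3.28). Of the 4 tested members from the study's table that was not selected by expression, 1 was higher and 1 was lower. The smallest adjusted p of the list was that of Migut.B01455, a homologue of AGL80 (FEM111), which is needed for central cell and endosperm development in Arabidopsis. Migut.B01455 is given in the study's text as the homologue of AGL34 and AGL90 instead, with a peak at 2 DAP. It had 16.6, 21.7 and 15.3 normalized CPM in 4 DAP seeds, against 0, 0, 0.243, 0.0791 and 0 in ovules (log2 fold change 7.76 ± 0.83 SE, edgeR adjusted p = 6.03e-07). Migut.B01089, a homologue of AGL45, had 2.63, 2.71 and 3.03 normalized CPM in 4 DAP seeds and no count in any ovule library, at least 62.8-fold higher against a floor of 3 counts over the ovule libraries together (edgeR adjusted p = 3.19e-05). Among homologues of AGL62, which in Arabidopsis delays the formation of endosperm walls, Migut.D01476 and Migut.B00480 went opposite ways. Migut.D01476 had 3.71, 4.50 and 4.42 normalized CPM in 4 DAP seeds, against 0, 0.0526, 1.40, 0 and 0.111 in ovules (log2 fold change 3.59 ± 0.90 SE, edgeR adjusted p = 0.00418), and its adjusted p was 0.0106, 0.0132 and 0.0136 without 4 DAP replicates 1, 2 and 3 0.0193 without ovule replicates 4 and 5 and 0.0281 with only the 8 libraries. Migut.B00480 had 0.103, 0 and 0.0605 normalized CPM in 4 DAP seeds, against 8.16, 7.999, 4.93, 3.24 and 3.1002 in ovules, a ratio of 0.0103 (95% counting interval 0.00211 to 0.0302) with an edgeR adjusted p of 6.41e-05. The other member that was lower, Migut.B01668, a homologue of AGL49, had a log2 fold change of -2.82 and an adjusted p of 0.00119, which was 0.0118 without 4 DAP replicate 2 and 0.0571 with the maternal plant as a block. Fitted on the 8 libraries alone, 10 of the genes passed the filter, of which 3 were higher and 2 lower. Of the 5 tested genes listed as endosperm regulators, 2 were higher, the homologues of ZHOUPI and DP1, and the other 3 did not pass. The list does not hold regulators alone, since it includes the dirigent-like DP1 and the beta-galactosidase homologue Migut.N01317. Migut.N01183, a homologue of ZHOUPI, a transcription factor of the Arabidopsis endosperm that is needed for its breakdown around the embryo, had 1.29, 0.662 and 0.787 normalized CPM in 4 DAP seeds and no count in ovules, at least 21.2-fold higher (edgeR adjusted p = 0.000111, or 0.0136 with the maternal plant as a block). Migut.A00696, which encodes a dirigent-like protein named DP1 in the study, had 16.04, 14.1 and 6.54 normalized CPM in 4 DAP seeds, against 0, 0.105, 0.183, 0 and 0.111 in ovules (log2 fold change 6.98 ± 1.06 SE, edgeR adjusted p = 3.96e-05). The RT-qPCR primers that the study designed for these genes are shown because they are the sequences at hand that identify the transcripts behind the values. They are printed 5′ to 3′ in lower case, and nothing in them is marked.
AGL80 homologue Migut.B01455, forward: tgctgccgccgtataatc
AGL80 homologue Migut.B01455, reverse: catcagggccagttccag
ZHOUPI homologue Migut.N01183, forward: ggtttcgtcggatcggaatag
ZHOUPI homologue Migut.N01183, reverse: gctgcagctagcctgtatatc
DP1 homologue Migut.A00696, forward: gatgaacaagaccagggacat
DP1 homologue Migut.A00696, reverse: atctccttccaaagcatccg

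The genes with the widest gap between the groups, taken by rule among genes past the threshold with libraries that did not overlap, included 3 RmlC-like cupins and a GPI-anchored protein among the 8 that were higher. The rule fixed the absence of overlap, which together with the threshold held for 11.1% of genes tested in the higher and 9.59% in the lower direction. Without the threshold the libraries did not overlap in 19.2% and 16.3%. Migut.H00772, a cupin, had 894, 1001 and 747 normalized CPM in 4 DAP seeds, against 0.0949, 0.210, 0.243, 0.237 and 0 in ovules (log2 fold change 12.23 ± 0.55 SE, edgeR adjusted p = 3.86e-12). A second cupin, Migut.H00944, had 959, 939.8 and 858 normalized CPM in 4 DAP seeds, against 0.190, 0.631, 0.974, 0.475 and 1.11 in ovules (log2 fold change 10.39 ± 0.50 SE, edgeR adjusted p = 5.28e-12). The third, Migut.H00946, had 143, 127 and 138 normalized CPM in 4 DAP seeds and 1 count in all ovule libraries together, a ratio of 9244 (95% counting interval 1659 to 365171). Cupins take their name from a barrel fold and include germin-like proteins of the cell wall. Migut.H01716, a homologue of LLG1, which escorts receptor kinases to the cell surface in Arabidopsis, had 485, 500.4 and 544 normalized CPM in 4 DAP seeds, against 0.285, 0.105, 0.183, 0 and 0.111 in ovules (log2 fold change 11.80 ± 0.44 SE, edgeR adjusted p = 2.2e-13). Ovule libraries were at or near 0 for these 4 genes. The other 4 of the 8, Migut.H00766, Migut.C00451, Migut.F01937 and Migut.G01284, carry no annotation used here and had log2 fold changes of 9.67, 11.62, 9.38 and 10.72.

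Among the 8 genes that were lower with the widest gap, 3 were homologues of the subtilase SDD1 and the others included a glucanase and a MYB factor. Migut.F00332, a homologue of the beta-1,3-glucanase BG1, an enzyme of the class that digests callose, had 0.155, 0 and 0.0605 normalized CPM in 4 DAP seeds, against 155, 55.3, 64.6, 83.8 and 148 in ovules (log2 fold change -10.19 ± 0.91 SE, edgeR adjusted p = 5.59e-08). Migut.H00102, a homologue of MYB21, a transcription factor of jasmonate-dependent flower maturation in Arabidopsis, had 0, 0 and 0.363 normalized CPM in 4 DAP seeds, against 151, 69.5, 84.3, 96.6 and 180.4 in ovules (log2 fold change -9.83 ± 0.96 SE, edgeR adjusted p = 6.03e-07). In both genes all ovule libraries lay above 50 normalized CPM and all 4 DAP libraries below 1. Migut.L01143 and Migut.C00884, without an annotation used here, had log2 fold changes of -7.33 and -7.88. The subtilases and the gibberellin-regulated gene Migut.C00831 are described with their families. In the same choice limited to genes with an Arabidopsis symbol, Migut.D00734, a homologue of DIR1, a lipid-transfer-like protein of systemic resistance, had 10.2, 9.73 and 9.20 normalized CPM in 4 DAP seeds, against 215, 298, 550.2, 777 and 718 in ovules (log2 fold change -5.72 ± 0.56 SE, edgeR adjusted p = 2e-07). Migut.B01627, a homologue of BEN1, which takes part in brassinosteroid metabolism, had 0.928, 0.662 and 2.30 normalized CPM in 4 DAP seeds, against 59.1, 49.9, 60.6, 52.99 and 71.1 in ovules (log2 fold change -5.49 ± 0.53 SE, edgeR adjusted p = 1.61e-07). On the other side Migut.B00635, a homologue of the beta-xylosidase XYL4, which trims wall xylan, had 356, 256 and 359.8 normalized CPM in 4 DAP seeds, against 0.380, 1.21, 0.852, 0.316 and 0.332 in ovules (log2 fold change 8.92 ± 0.67 SE, edgeR adjusted p = 4.89e-09). Migut.N00652, a homologue of the auxin-induced membrane cytochrome AIR12, had a log2 fold change of 8.91.

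**Figure D1:**
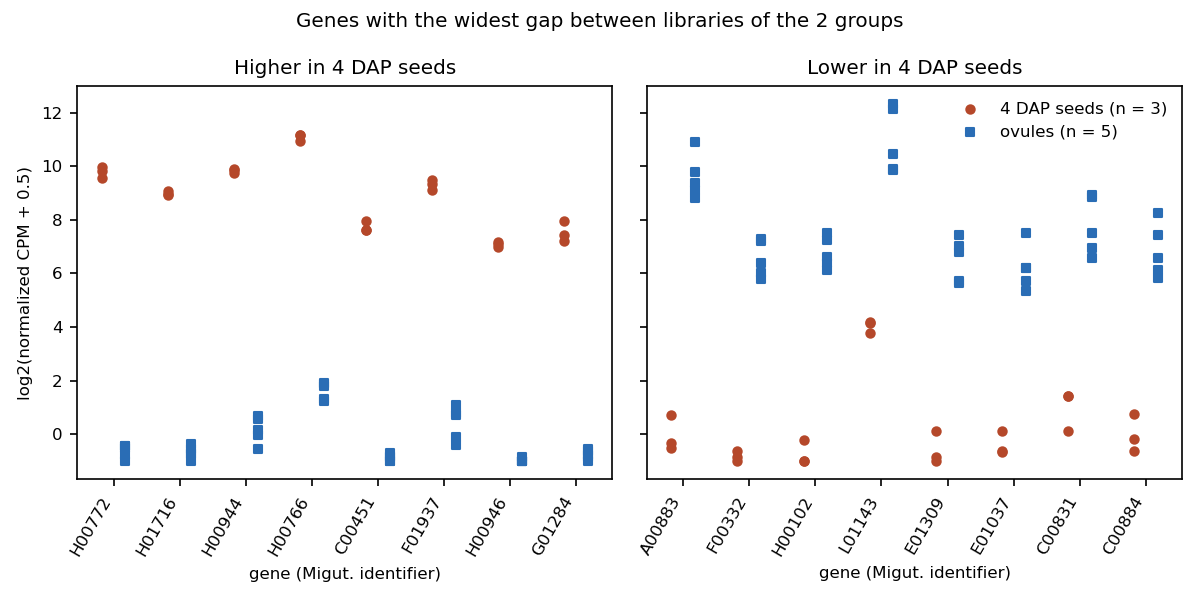
Levels of the 8 genes that were higher and the 8 that were lower with the widest gap, as log2(normalized CPM + 0.5) in each library (vertical axis) by gene (horizontal axis), with 4 DAP seeds as circles and ovules as squares. The cupin Migut.H00772 lies highest of the left panel's gaps and the subtilase Migut.A00883 of the right panel's, and the rule of choice fixed that the groups do not overlap.

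More subtilase genes, which encode secreted serine proteases, were lower than higher. Of 31 members 18 were tested, of which 10 were lower, 2 were higher and 6 did not pass (median log2 fold change -3.42). All 6 of the tested members from the table that was not selected by expression were lower, and the other 12 of that table did not pass the filter. Migut.A00883, a homologue of SDD1, which in Arabidopsis limits stomatal density, had 0.309, 0.199 and 1.15 normalized CPM in 4 DAP seeds, against 1902, 554, 454, 655 and 892 in ovules (log2 fold change -10.63 ± 1.08 SE, edgeR adjusted p = 2.95e-07). Other SDD1 homologues were Migut.E01037 (log2 fold change -8.11) and Migut.E01309 (log2 fold change -8.83). Migut.A00856, a homologue of ARA12, which in Arabidopsis takes part in the release of seed coat mucilage, had 42.04, 19.99 and 23.2 normalized CPM in 4 DAP seeds, against 3676, 1701, 1268, 732 and 1079 in ovules (log2 fold change -5.89 ± 0.52 SE, edgeR adjusted p = 5.1e-08). The opposite was found for another ARA12 homologue, Migut.C00500, with 7158, 5831 and 8149 normalized CPM in 4 DAP seeds, against 312, 272, 263, 145 and 107 in ovules (log2 fold change 5.00 ± 0.36 SE, edgeR adjusted p = 3.27e-09). The 4 DAP libraries lay far above all ovule libraries, and Migut.C00500 was among the 5 genes with the largest gain in CPM. With this gene the summed level of the family went against the count of its members, at 5886 to 8227 normalized CPM in 4 DAP seeds, against 1878 to 6534 in ovules, with overlap in ovule replicate 1. Migut.L01338 was the other subtilase that was higher, with a log2 fold change of 5.41. Several members carry neighbouring identifiers and may be near-identical copies, and since uniquely mapped reads alone were counted, their values are uncertain where copies share sequence. Among aspartyl proteases 6 of 37 tested were higher and 7 lower. In the table not selected by expression 0 of 9 tested were higher and 5 lower. In the tables the study selected on these samples 6 of 28 were higher and 2 lower. Migut.B01425 had 41.1, 42.5 and 37.2 normalized CPM in 4 DAP seeds, against 0.190, 0.158, 0.243, 0 and 0 in ovules (log2 fold change 8.16 ± 0.77 SE, edgeR adjusted p = 1.09e-07). Migut.G00296 had 0.619, 0.662 and 1.03 normalized CPM in 4 DAP seeds, against 65.96, 30.4, 18.02, 20.8 and 23.03 in ovules (log2 fold change -5.35 ± 0.72 SE, edgeR adjusted p = 9.5e-06). The family counts were 2 higher and 9 lower without ovule replicates 4 and 5, and 3, 4 and 4 higher with 5, 4 and 3 lower without 4 DAP replicates 1, 2 and 3. The serine carboxypeptidase-like gene Migut.B00316, a homologue of SCPL40, was also among the 5 largest gains, with 4984, 4803 and 4855 normalized CPM in 4 DAP seeds, against 461, 184, 186, 322 and 462 in ovules (log2 fold change 3.92 ± 0.43 SE, edgeR adjusted p = 8.84e-07).

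Protease inhibitors included 8 of 22 tested that were higher and 3 that were lower (median log2 fold change 3.14). Every call was of a member from tables the study selected on these samples, so the counts are not independent evidence of a direction. The 1 tested member from the table not selected by expression did not pass. The summed level went against the count, at 606 to 731 normalized CPM in 4 DAP seeds, against 648 to 1069 in ovules, with overlap. From libraries 1 to 14 alone 3 were higher and 4 lower, and with the maternal plant as a block 2 were higher and 4 lower. Migut.B00982, a potato inhibitor I-type protein, had 17.5, 20.5 and 19.5 normalized CPM in 4 DAP seeds, against 1.04, 3.63, 1.16, 0.633 and 0 in ovules (log2 fold change 3.78 ± 0.54 SE, edgeR adjusted p = 2.04e-05). In the other direction Migut.L00983, of the same type, had 2.17, 2.18 and 2.12 normalized CPM in 4 DAP seeds, against 83.4, 88.8, 78.9, 169 and 123 in ovules (log2 fold change -5.65 ± 0.89 SE, edgeR adjusted p = 5.55e-05), and the cystatin A homologue Migut.D00706, an inhibitor of cysteine proteases, had a log2 fold change of -1.92 (edgeR adjusted p = 5.93e-06).

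Xyloglucan endotransglucosylases (XTH), which cut and rejoin the xyloglucans that tether cellulose, were mostly higher in 4 DAP seeds. Of 21 members 15 were tested, of which 11 were higher, 1 was lower and 3 did not pass (median log2 fold change 6.92). In the table not selected by expression, 8 of 10 tested were higher and the other 2 did not pass. Migut.B01445, a homologue of XTH30, had 889, 880.5 and 802 normalized CPM in 4 DAP seeds, against 4.37, 8.10, 11.5, 7.20 and 3.88 in ovules (log2 fold change 6.92 ± 0.43 SE, edgeR adjusted p = 3.36e-10). Among homologues of XTH3, Migut.A01017 had 109, 100.3 and 174 normalized CPM in 4 DAP seeds, against 0, 0, 0.183, 0.395 and 0 in ovules (log2 fold change 9.96 ± 0.71 SE, edgeR adjusted p = 2.32e-09). Migut.A00993 had 83.4, 60.04 and 139.8 normalized CPM in 4 DAP seeds with 1 count in all ovule libraries together, a ratio of 6409 (95% counting interval 1149.7 to 253189). Migut.A01024 was without a count in ovules, at least 286-fold higher (edgeR adjusted p = 1.28e-06). Of the members already present in ovules, Migut.B00491 (XTH10), with 175, 70.9 and 270.2 normalized CPM in 4 DAP seeds, against 131, 607.2, 903, 242 and 380.1 in ovules, did not pass (edgeR adjusted p = 0.0869). Nor did Migut.M00382, a homologue of XTH9 (adjusted p = 0.235). The member that was lower, Migut.C01382, a homologue of XTH1, had adjusted p-values of 0.0278, 0.0202 and 0.0221 without 4 DAP replicates 1, 2 and 3. Summed, XTH transcripts were at 1379 to 1695 normalized CPM in 4 DAP seeds, against 359.6 to 1115 in ovules. Read counts are not scaled by gene length, so levels are compared between libraries and not between genes.

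Expansins, which loosen walls without cutting them, showed a divided pattern, with 6 of 14 tested higher, 2 lower and 6 not past the threshold (median log2 fold change 0.81). Every call was of a member from tables the study selected on these samples, so the counts are not independent evidence of a direction. The 1 tested member from the table not selected by expression did not pass. All 6 that were higher were beta-expansins of the EXPB2 and EXPB4 type, 5 of them with neighbouring identifiers. Migut.F01690 had 183, 138 and 281 normalized CPM in 4 DAP seeds, against 0, 0.105, 0.243, 0.395 and 0 in ovules (log2 fold change 10.20 ± 0.55 SE, edgeR adjusted p = 3.92e-11). Migut.F01692 had 129, 108 and 167.4 normalized CPM in 4 DAP seeds, against 0.0949, 0, 0.183, 0.0791 and 0 in ovules (log2 fold change 10.66 ± 0.60 SE, edgeR adjusted p = 7.32e-11). Migut.N01289 had 121, 98.97 and 143 normalized CPM in 4 DAP seeds, against 0.190, 0.105, 0.122, 0.0791 and 0.221 in ovules (log2 fold change 9.71 ± 0.48 SE, edgeR adjusted p = 1.08e-11). In each of these the highest ovule library was below 1 normalized CPM and the lowest 4 DAP library was above 90. Migut.F01694 was without a count in ovules, at least 259-fold higher (edgeR adjusted p = 1.51e-06). The 2 that were lower were the EXPB2 homologue Migut.F00505 with 0.309, 0.0662 and 0.303 normalized CPM in 4 DAP seeds, against 9.87, 16.05, 15.2, 20.6 and 27.1 in ovules (log2 fold change -6.20 ± 0.99 SE, edgeR adjusted p = 6.92e-05), and the expansin-like EXLB1 homologue Migut.E00829 (log2 fold change -4.68). No alpha-expansin passed, with Migut.D02087 (EXPA4) at 95.3, 88.4 and 62.8 normalized CPM in 4 DAP seeds, against 62.4, 21.4, 25.99, 33.9 and 69.3 in ovules and an edgeR adjusted p of 0.0474.

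**Figure D2:**
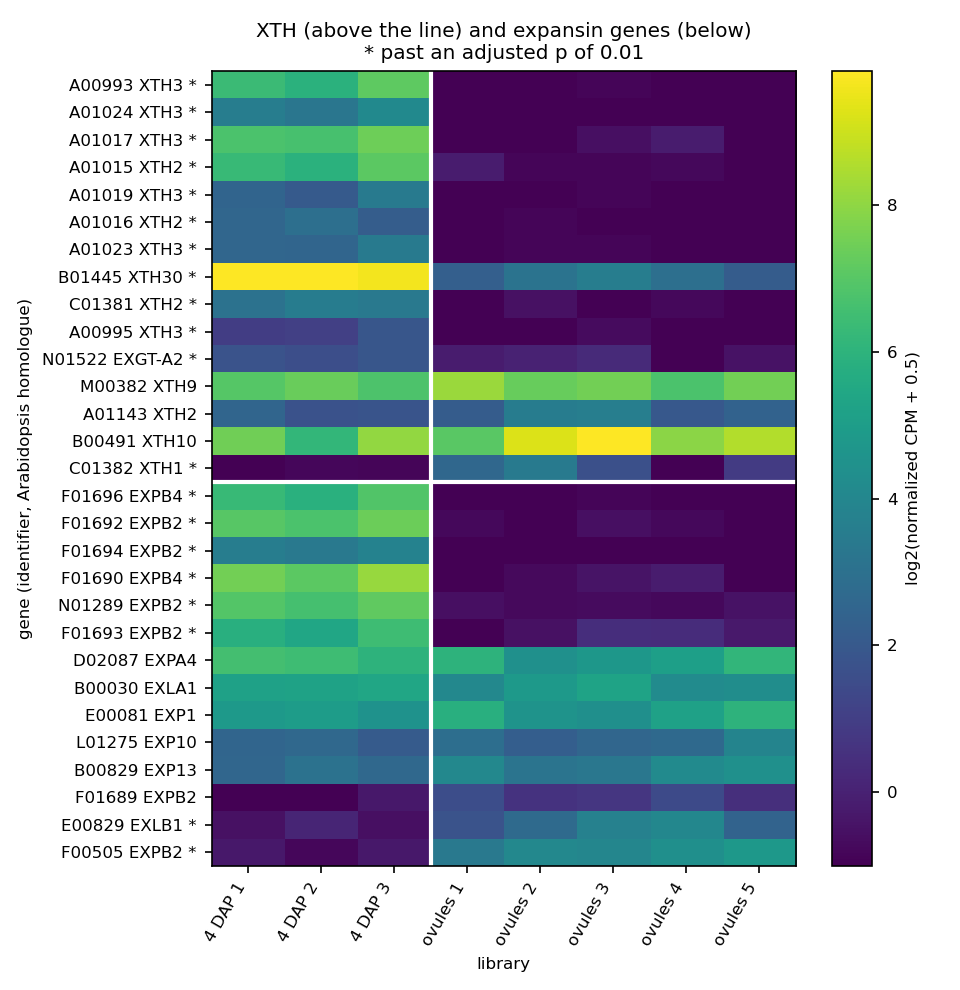
Levels of the tested XTH genes (above the horizontal line) and expansin genes (below it) in each library, coloured by log2(normalized CPM + 0.5), with the 4 DAP libraries left of the vertical line and the ovule libraries right of it. The star marks genes past an adjusted p of 0.01, 11 higher and 1 lower for XTH and 6 higher and 2 lower for expansins.

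Other wall genes moved less uniformly. Of 21 tested inhibitors of pectin methylesterase and invertase, which restrain the demethylation of pectin or the cleavage of sucrose, 4 were higher and 3 lower, and from libraries 1 to 14 alone 2 and 2. Migut.M00123 had 18.98, 27.7 and 33.2 normalized CPM in 4 DAP seeds and no count in ovules, at least 590.1-fold higher (edgeR adjusted p = 1.37e-06). Migut.I00636 had 33.9, 34.03 and 52.97 in 4 DAP seeds and 2 counts in all ovule libraries together, a ratio of 1357 (95% counting interval 375 to 11209). Migut.J00873 had 1.39, 0.993 and 1.45 normalized CPM in 4 DAP seeds, against 24.4, 12.1, 14.7, 20.3 and 22.6 in ovules (log2 fold change -3.86 ± 0.52 SE, edgeR adjusted p = 9.22e-06). Migut.M00087, a homologue of the invertase inhibitor C/VIF1, which the study names, had 33.2, 36.6 and 28.8 in 4 DAP seeds and no count in ovules, at least 739-fold higher (edgeR adjusted p = 2.42e-06). Of 31 secondary wall genes 8 were higher and 1 was lower (median log2 fold change 2.19). All these calls were of members from tables the study selected on these samples and are not independent evidence of a direction. The 2 members from the table not selected by expression did not pass. Migut.H00599, a homologue of COBL4, which is needed for cellulose deposition in secondary walls, had 16.2, 13.3 and 18.2 normalized CPM in 4 DAP seeds, against 0.854, 0.210, 1.28, 0 and 0 in ovules (log2 fold change 5.00 ± 0.57 SE, edgeR adjusted p = 1.35e-06). The cellulose synthase homologues Migut.D00465 (CESA4), Migut.J01374 (CESA7) and Migut.M01014 (CESA8) did not pass, with edgeR adjusted p of 0.0803, 0.02 and 0.032, and were higher from libraries 1 to 14 alone (0.00535, 0.00643 and 0.00346). In Migut.D00465 4 DAP replicate 1, at 25.7 normalized CPM, stood above the other 4 DAP libraries, at 5.03 and 8.96. The xylan glucuronyltransferase homologue Migut.H00742 (GUX1) was the secondary wall gene that was lower, with 0.103, 0.199 and 0.908 normalized CPM in 4 DAP seeds, against 31.98, 14.8, 13.03, 18.5 and 19.5 in ovules (log2 fold change -5.58 ± 0.68 SE, edgeR adjusted p = 2.89e-06). With the library series as a covariate 16 of the 31 were higher, from libraries 1 to 14 alone 12, and with the maternal plant as a block 2, against 8 in the fit by age.

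Genes of the self-incompatibility S1 family, small secreted proteins first known from Papaver stigmas, formed the largest list, with 38 of 71 tested higher, 9 lower and 24 not past the threshold (median log2 fold change 3.94, or 3.73 with genes at 0 in a group set to their bound). All of them come from tables the study selected on these samples, so the counts are not independent evidence of a direction. Without any 1 of the 4 DAP libraries 32 to 34 were higher and 5 lower. Migut.G01212 had 91.4, 84.7 and 145 normalized CPM in 4 DAP seeds and 2 counts in all ovule libraries together, a ratio of 3610.2 (95% counting interval 999 to 29818). Migut.G01214 had 37.6, 37.5 and 63.2 in 4 DAP seeds and none in ovules, at least 1034-fold higher (edgeR adjusted p = 7.44e-09). Migut.F01974 had 35.6, 47.1 and 42.3 normalized CPM in 4 DAP seeds, against 0, 0.105, 0.0609, 0 and 0 in ovules, a ratio of 929 (95% counting interval 317 to 4509). The ovule libraries were at or near 0 for all 3 genes. Those that were lower included Migut.H02433 with 0.464, 0.397 and 0.908 normalized CPM in 4 DAP seeds, against 31.03, 32.1, 22.6, 35.7 and 28.7 in ovules (log2 fold change -5.65 ± 0.96 SE, edgeR adjusted p = 0.000134). Migut.C00644 had 0.361, 0.265 and 0.424 normalized CPM in 4 DAP seeds, against 17.5, 25.9, 15.2, 10.5 and 13.6 in ovules (log2 fold change -5.52 ± 0.92 SE, edgeR adjusted p = 0.00011). In both genes no 4 DAP library reached 1 normalized CPM. The summed level of the family overlapped between groups, at 512 to 668 normalized CPM in 4 DAP seeds, against 376 to 875 in ovules, and in the highest library, ovule replicate 4, Migut.C00639 alone had 429.7 normalized CPM. At 6 DAP Migut.G01212 was at 10.3 ± 5.77 normalized CPM, whereas Migut.F01974 was at 275 ± 69.6 (SD, n = 4 each).

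Many DNA replication and cell division genes were lower in 4 DAP seeds. Of 12 tested replication genes 9 were lower and 3 did not pass (median log2 fold change -1.57), and of 21 tested mitotic genes 10 were lower and 1 was higher (median -1.50). In the table not selected by expression, 2 of 4 tested replication genes and 1 of 9 tested mitotic genes were lower. The mitotic share there was close to the 9.99% over all genes tested. The other lower calls, 7 of 8 and 9 of 12 tested, come from tables the study selected on these samples. Those calls are not independent evidence of a direction. Migut.D02143, a homologue of the replication clamp PCNA2, had 43.2, 43.4 and 33.8 normalized CPM in 4 DAP seeds, against 163, 116, 281, 305 and 446 in ovules (log2 fold change -2.71 ± 0.36 SE, edgeR adjusted p = 8.55e-06). Migut.D00627, a homologue of the helicase subunit MCM7, had 6.55, 6.29 and 4.54 normalized CPM in 4 DAP seeds, against 32.7, 15.997, 36.03, 59.9 and 44.2 in ovules (log2 fold change -2.70 ± 0.35 SE, edgeR adjusted p = 5.3e-06). Among mitotic genes Migut.G00709, a homologue of the kinase CDKB1;2, had 9.23, 10.4 and 6.96 normalized CPM in 4 DAP seeds, against 62.5, 33.8, 37.2, 77.04 and 95.997 in ovules (log2 fold change -2.79 ± 0.33 SE, edgeR adjusted p = 2.42e-06). Migut.C01054, a homologue of cyclin CYCA1;1, had a log2 fold change of -2.86. Migut.N02777, a homologue of CYCD5;1, had 0.206, 0.265 and 0.545 normalized CPM in 4 DAP seeds, against 18.1, 25.6, 13.9, 4.11 and 13.2 in ovules (log2 fold change -5.44 ± 0.98 SE, edgeR adjusted p = 0.00024). Migut.D00596 (ORC1A) and Migut.A00185 (CDC2), by contrast, did not pass, with log2 fold changes of 0.14 and -0.40. From libraries 1 to 14 alone 9 and 11 were lower. The mitotic gene called higher did not pass there, nor without 4 DAP replicate 3, without ovule replicates 4 and 5, or with the maternal plant as a block.

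All 14 core histone genes were lower (median log2 fold change -2.34), with 3 of 3 in the table not selected by expression. Their summed level was 1067 to 1218 normalized CPM in 4 DAP seeds, against 2919.7 to 9671 in ovules. Migut.D02154 had 15.6, 17.9 and 11.4 normalized CPM in 4 DAP seeds, against 160.3, 147, 139, 199.6 and 454 in ovules (log2 fold change -3.88 ± 0.42 SE, edgeR adjusted p = 6.2e-07). Migut.H02334, among the 5 genes with the largest loss in CPM, had 447, 472 and 467 normalized CPM in 4 DAP seeds, against 905, 1215, 1969, 2921 and 3625 in ovules (log2 fold change -2.20 ± 0.41 SE, edgeR adjusted p = 0.000341). Migut.B01088, a homologue of the centromeric histone CENH3, had 2.48, 3.44 and 1.998 normalized CPM in 4 DAP seeds, against 6.36, 5.53, 14.2, 7.36 and 12.8 in ovules (log2 fold change -1.81 ± 0.33 SE, edgeR adjusted p = 0.000278). Ovule replicates 4 and 5, the libraries with the most of the carpel marker, also had the highest summed histone levels, and the part of carpel tissue in the difference was not tested. From libraries 1 to 14 alone all 14 were still lower, with a median of -1.85, and without ovule replicates 4 and 5 it was 12, with a median of -1.84. Fitted with the 8 libraries alone, 8 of 14 passed, and with the maternal plant as a block 9, where the adjusted p was 0.013 for Migut.H02334 and 0.0108 for Migut.B01088. At the other seed ages Migut.D02154 was at 84.5 ± 27.7 at 2 DAP, 89.3 ± 8.04 at 6 DAP and 277 ± 61.6 at 8 DAP (SD, n = 4 each). Ribosomal protein genes had 1 of 33 tested higher and 7 lower, with a median log2 fold change of -0.77 that became 0.03 from libraries 1 to 14 alone, and without any 1 of the 4 DAP libraries 3 were lower, so no direction is given for the family.

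**Figure D3:**
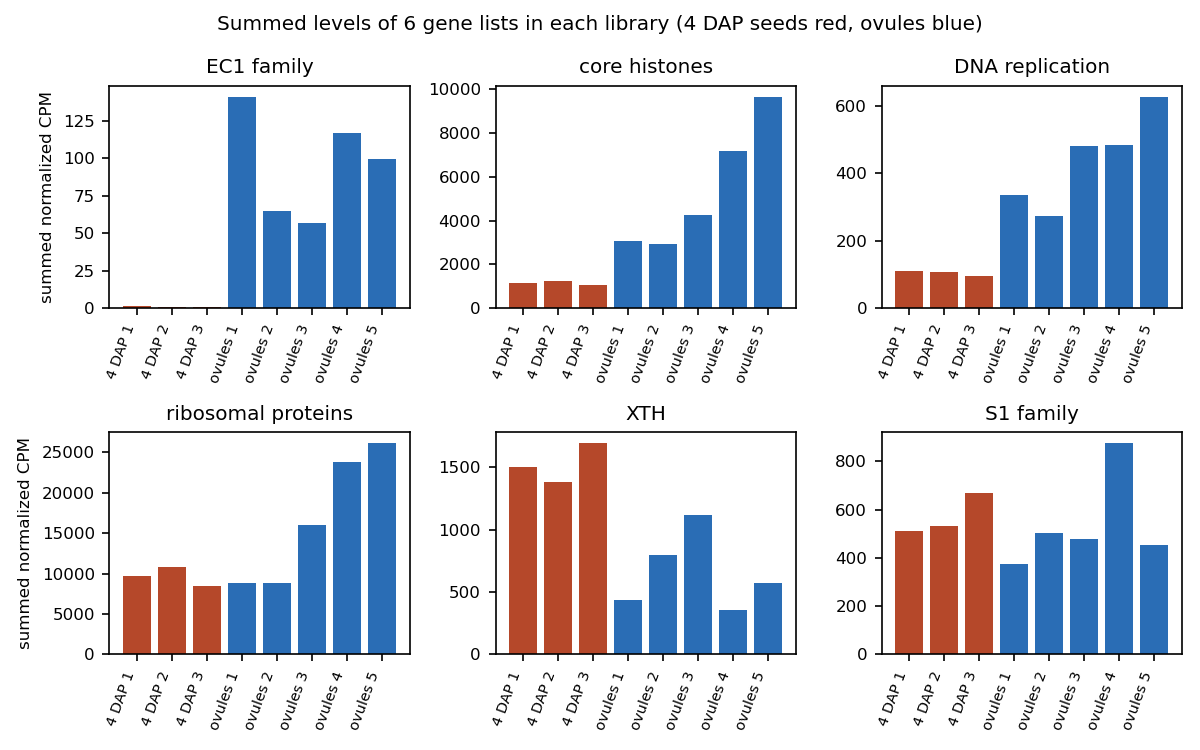
Summed normalized CPM (vertical axis, from 0) of 6 gene lists in each library, with the 4 DAP seed libraries in red on the left and the ovule libraries in blue on the right. EC1, histone and replication genes are lower in all 4 DAP libraries, XTH genes are higher, and the ribosomal and S1 sums overlap between groups, with ovule replicates 4 and 5 highest for histone and ribosomal genes.

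Of 5 tested genes that make or break down gibberellin, a growth hormone made in young seeds, 1 was higher and 2 were lower. Migut.A00283, a homologue of GA3OX1, which makes the active form, had 47.2, 54.9 and 46.4 normalized CPM in 4 DAP seeds, against 0.0949, 0, 0.243, 0 and 0 in ovules (log2 fold change 9.22 ± 0.64 SE, edgeR adjusted p = 1.77e-09). Migut.L00253, a homologue of GA20OX2, which acts just before it, had 0, 0 and 0.121 normalized CPM in 4 DAP seeds, against 3.89, 7.84, 11.6, 6.88 and 4.43 in ovules, a ratio of 0.00522 (95% counting interval 0.000631 to 0.0190) with an edgeR adjusted p of 0.000162. Migut.H01552, a homologue of GA2OX8, which inactivates gibberellin precursors, had 1.60, 2.05 and 2.97 normalized CPM in 4 DAP seeds, against 82.9, 43.9, 31.2, 28.7 and 23.03 in ovules (log2 fold change -4.25 ± 0.64 SE, edgeR adjusted p = 3.7e-05). The others, Migut.C01290 (GA20OX2) and Migut.H01362 (GA2OX2), did not pass (edgeR adjusted p = 0.0169 and 0.0961). In the gibberellin-regulated GASA family, small secreted cysteine-rich peptides, 5 of 13 tested were higher and 4 lower. Migut.H00923, a homologue of GASA4, had 215, 264 and 224 normalized CPM in 4 DAP seeds, against 14.5, 17.05, 32.99, 89.2 and 70.97 in ovules (log2 fold change 2.38 ± 0.51 SE, edgeR adjusted p = 0.00121). Migut.C00831 had 2.17, 2.18 and 0.605 normalized CPM in 4 DAP seeds, against 123, 95.5, 179.6, 487 and 457 in ovules (log2 fold change -7.33 ± 0.80 SE, edgeR adjusted p = 7.5e-07). Migut.K01359 had no count in 4 DAP seeds and 1.52, 0.210, 24.8, 131 and 351 normalized CPM in ovules, at least 1323-fold lower, with an edgeR adjusted p of 0.00198 that became 0.0107 without 4 DAP replicate 1, 0.0106 without replicate 3, 0.025 with only the 8 libraries and 0.0843 with the library series as a covariate, where its log2 fold change was -6.35. Its ovule level was high in replicates 3 to 5 alone.

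Of 9 tested genes of abscisic acid, the hormone of seed maturation and dormancy, 4 were higher and 1 was lower, the lower call being lost without 4 DAP replicate 1 or 3. All these calls were of members from tables the study selected on these samples and are not independent evidence of a direction. The 3 tested members from the table not selected by expression did not pass. Migut.G00626, a homologue of NCED6, which cleaves carotenoids at the start of its synthesis and is active in the Arabidopsis endosperm, had 9.85, 11.2 and 8.54 normalized CPM in 4 DAP seeds and no count in ovules, at least 221-fold higher (edgeR adjusted p = 4.58e-06). Migut.G00115, a homologue of the receptor PYL11, had 48.2, 46.5 and 29.97 normalized CPM in 4 DAP seeds, against 1.52, 1.68, 2.01, 2.06 and 1.77 in ovules (log2 fold change 4.51 ± 0.58 SE, edgeR adjusted p = 5.49e-06). Migut.C00577, a homologue of CYP707A4, which breaks the hormone down, had a log2 fold change of 1.95. Auxin genes split into 4 higher and 6 lower of 20 tested. Transcription regulators were among both. Migut.D00477, a homologue of IAA13, had 358, 397 and 379 normalized CPM in 4 DAP seeds, against 39.2, 53.8, 72.6, 89.5 and 78.7 in ovules (log2 fold change 2.501 ± 0.25 SE, edgeR adjusted p = 1.99e-07). The homologues Migut.C00816 (ARF5) and Migut.D01038 (IAA14) were also higher, with log2 fold changes of 2.14 and 3.56. Migut.D00989 (IAA26) and Migut.J00834 (ARF19, also listed as ARF11) were lower, with -1.71 and -1.96. The other ARF19 homologues, Migut.L01587 and Migut.L01914, did not pass (edgeR adjusted p = 0.0125 and 0.097). Of 3 auxin importer homologues 2 were lower. Migut.N01303, a homologue of LAX2, had 1.13, 1.52 and 1.03 normalized CPM in 4 DAP seeds, against 32.9, 47.3, 27.2, 16.3 and 32.3 in ovules (log2 fold change -4.66 ± 0.49 SE, edgeR adjusted p = 4.97e-07). Migut.C01164, a homologue of LAX3, had 1.24, 1.19 and 0.303 normalized CPM in 4 DAP seeds, against 28.8, 18.1, 18.3, 23.02 and 28.6 in ovules (log2 fold change -4.66 ± 0.69 SE, edgeR adjusted p = 3.06e-05). A second LAX2 homologue, Migut.B00100, did not pass (edgeR adjusted p = 0.0292). Auxin synthesis genes that the study names were near 0, with Migut.A00287 (YUC4) at no count in 4 DAP seeds and at most 0.285 normalized CPM in ovules, and Migut.D01989 (TAR2) at no count outside ovule replicate 3. Of 37 small auxin-responsive SAUR genes 14 were tested, of which 2 were higher and 4 lower, and from libraries 1 to 14 alone 3 and 2. Migut.C00812 had 18.002, 16.1 and 12.7 normalized CPM in 4 DAP seeds, against 0, 0.842, 1.83, 0.870 and 1.22 in ovules (log2 fold change 3.99 ± 0.55 SE, edgeR adjusted p = 1.22e-05).

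Of 15 tested genes for sugar and amino acid transport, the route of nutrients into the seed, 5 were higher and 3 lower. All these calls were of members from tables the study selected on these samples and are not independent evidence of a direction. The 3 members from the table not selected by expression did not pass. The counts were 4, 4 and 3 higher and 2, 1 and 1 lower without 4 DAP replicates 1, 2 and 3, and 6 higher and 1 lower from libraries 1 to 14 alone. Migut.C01105, an MtN3 family gene and so a relative of the SWEET sugar exporters, had 1123, 1175 and 1057 normalized CPM in 4 DAP seeds, against 3.23, 4.89, 4.56, 1.66 and 5.87 in ovules (log2 fold change 8.11 ± 0.47 SE, edgeR adjusted p = 1.19e-10). Its level was 469 ± 279.6 at 2 DAP, 1784 ± 328 at 6 DAP and 1203 ± 184 at 8 DAP (SD, n = 4 each). The amino acid permease homologues Migut.C00424 (AAP6) and Migut.C01056 (AAP3) were higher too. Migut.C00424 had 43.9, 51.6 and 38.7 normalized CPM in 4 DAP seeds, against 8.07, 5.05, 6.94, 10.8 and 8.64 in ovules (log2 fold change 2.504 ± 0.29 SE, edgeR adjusted p = 1.72e-06). For Migut.C01056 the log2 fold change was 2.80. Another AAP3 homologue, Migut.H00819, went the other way, with 2.42, 0.927 and 0.666 normalized CPM in 4 DAP seeds, against 16.7, 8.16, 9.62, 23.4 and 36.6 in ovules (log2 fold change -3.79 ± 0.70 SE, edgeR adjusted p = 0.000318). The sucrose carrier homologue Migut.C01230 (SUC2) did not pass (edgeR adjusted p = 0.0936). Migut.H02111, also of the MtN3 family, had no count in 4 DAP seeds and 0.0949, 0.0526, 22.1, 80.8 and 174 normalized CPM in ovules, at least 744-fold lower, again high in replicates 3 to 5 alone. Its adjusted p, 0.00781, became 0.0296, 0.0277 and 0.0292 without 4 DAP replicates 1, 2 and 3 and 0.433 with the library series (numbers 1 to 14 or 15 to 20) as a covariate.

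Of 20 tested genes of seed storage proteins and oil bodies 0 passed in either direction in edgeR and 0 in DESeq2, and 0 had an unadjusted p below 0.05 in edgeR. All but Migut.G00483, a homologue of the oil body protein caleosin (CLO1), were below 1 normalized CPM in every 4 DAP library. Migut.G00483 had 2.22, 1.52 and 1.33 normalized CPM in 4 DAP seeds, against 1.33, 0.789, 1.89, 1.03 and 3.21 in ovules (edgeR adjusted p = 0.925). Of 6 tested maturation regulators 3 were higher. All 6 come from tables the study selected on these samples, so the count is not independent evidence of a direction. Migut.E01594, a homologue of LEC1-like (L1L), an embryo transcription factor subunit, had 1.65, 1.92 and 2.18 normalized CPM in 4 DAP seeds and no count in ovules, at least 42.9-fold higher (edgeR adjusted p = 0.000149, or 0.0134 with the maternal plant as a block). The other L1L homologue, Migut.M01289, which the study takes as the nearest one, had 2.73, 2.65 and 4.54 normalized CPM in 4 DAP seeds, against 1.04, 1.11, 1.34, 2.29 and 0.664 in ovules and did not pass (edgeR adjusted p = 0.0258). Migut.B01163, a homologue of ASML1 (WRINKLED1), which switches on oil synthesis, had 1.86, 3.44 and 1.94 normalized CPM in 4 DAP seeds, against 0, 0.158, 0.487, 0 and 0 in ovules (log2 fold change 3.86 ± 0.64 SE, edgeR adjusted p = 0.000108). Migut.F00019 (FUS3) and Migut.D00511 (ABI3), master regulators of maturation in Arabidopsis, did not pass (edgeR adjusted p = 0.596 and 0.32), and Migut.D00511 had 1 count in the 8 libraries.

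Seed coat pigment genes changed in both directions, with 3 of 7 tested flavonoid genes higher and 3 lower. All 7 come from tables the study selected on these samples, so the counts are not independent evidence of a direction. The summed level of the 7 flavonoid genes did not overlap between groups, at 309 to 413 normalized CPM in 4 DAP seeds, against 80.5 to 117 in ovules. Migut.C00171, a homologue of the laccase LAC15 (TT10), which oxidizes seed coat tannins in Arabidopsis, had 136, 56.6 and 144 normalized CPM in 4 DAP seeds, against 17.6, 11.8, 8.95, 11.2 and 10.5 in ovules (log2 fold change 3.23 ± 0.50 SE, edgeR adjusted p = 4.37e-05, or 0.0199 with the maternal plant as a block). Migut.C01354, a homologue of the flavonoid hydroxylase CYP75B1 (TT7), had 142, 144 and 112 normalized CPM in 4 DAP seeds, against 11.1, 17.7, 11.7, 3.80 and 7.53 in ovules (log2 fold change 3.67 ± 0.46 SE, edgeR adjusted p = 4.07e-06). The flavonol synthase homologue Migut.C01158 had 1.75, 1.19 and 1.39 normalized CPM in 4 DAP seeds, against 45.7, 17.5, 14.4, 39.2 and 28.6 in ovules (log2 fold change -4.31 ± 0.51 SE, edgeR adjusted p = 2.01e-06). Of 26 tested chromatin genes 8 were lower and 18 did not pass (median log2 fold change -0.47), and without 4 DAP replicates 1, 2 and 3 the lower genes numbered 4, 5 and 4. Migut.D01073, a homologue of the methyl-CpG-binding protein MBD10, had 30.6, 36.9 and 30.8 normalized CPM in 4 DAP seeds, against 182, 209, 112, 116 and 117 in ovules (log2 fold change -2.17 ± 0.29 SE, edgeR adjusted p = 1.1e-05). Migut.D02536, a homologue of the DNA methyltransferase CMT3, had 7.48, 6.22 and 4.54 normalized CPM in 4 DAP seeds, against 22.7, 24.6, 18.5, 25.9 and 27.7 in ovules (log2 fold change -1.97 ± 0.25 SE, edgeR adjusted p = 4.03e-06). Migut.M01812, a homologue of FIE, the Polycomb subunit that holds back seed development before fertilization in Arabidopsis, had 31.8, 36.4 and 29.9 normalized CPM in 4 DAP seeds, against 50.4, 95.04, 97.8, 81.9 and 89.6 in ovules (log2 fold change -1.34 ± 0.23 SE, edgeR adjusted p = 0.000122). The Polycomb methyltransferase homologues Migut.D00079 (SWN) and Migut.H00416 (CLF) did not pass, with log2 fold changes of 0.27 and 0.25. Of 14 tested lipid transfer protein genes 2 were higher and 4 lower, but from libraries 1 to 14 alone 5 were higher and the other 6 of 11 tested did not pass. All 14 come from tables the study selected on these samples, so these counts too are not independent evidence of a direction. Migut.M01355, a homologue of LTP12, had 76.2, 68.3 and 101 normalized CPM in 4 DAP seeds, against 0.0949, 0, 0.183, 0 and 0 in ovules (log2 fold change 10.22 ± 1.01 SE, edgeR adjusted p = 2.18e-07), and every 4 DAP library lay above every ovule library. Of 8 tested plantacyanin genes, copper proteins of the cell surface, 4 were higher and 1 lower. Migut.B00677 had 5.31, 5.76 and 11.8 normalized CPM in 4 DAP seeds, against 0.0949, 0.368, 0, 0.475 and 0 in ovules (log2 fold change 5.19 ± 0.91 SE, edgeR adjusted p = 0.000173). From libraries 1 to 14 alone 2 of 7 were higher and the others did not pass, and the lower call was lost without 4 DAP replicate 2 or 3. Of 9 tested B3 factors 4 were lower, and of 6 tested photosynthesis genes 1 was higher and 2 lower, or 0 and 1 without 4 DAP replicate 1 or 3. Of 4 tested floral organ MADS-box genes 1 was higher, a homologue of AP3, and of 2 tested ovule regulators Migut.H00323, a homologue of ANT, was lower, with an edgeR adjusted p of 0.00419 that became 0.0175, 0.0227 and 0.028 without 4 DAP replicates 1, 2 and 3, 0.0107 without ovule replicate 4, 0.0125 from libraries 1 to 14 alone, and 0.0184 with the maternal plant as a block.

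Several of these counts moved with the libraries or the block used. With the maternal plant as a block, type I MADS-box genes had 3 higher and 1 lower, aspartyl proteases 1 higher, SAUR genes 1 lower, chromatin genes 4 lower and B3 factors 1 lower. Flavonoid genes then had 1 higher, plantacyanins 2 higher and 0 lower, lipid transfer proteins 3 higher and 0 lower, and pectin methylesterase and invertase inhibitors 2 and 2. In the same fit the list of endosperm regulators had 1 higher, the DP1 homologue, and maturation regulators had 1 higher. Transport genes there had 1 lower, and photosynthesis genes 0 higher and 1 lower. Abscisic acid genes and ovule regulators had 0 lower, and ribosomal proteins 0 in either direction. In that fit EC1 genes still had 6 lower, expansins 6 higher and 2 lower, XTH 8 higher and 1 lower, and the S1 family 31 higher and 6 lower. From libraries 1 to 14 alone, aspartyl proteases had 2 higher and 8 lower, gibberellin synthesis and breakdown genes 1 higher and 1 lower of 4 tested with a median log2 fold change of 1.21, against -1.68 from all libraries, floral organ MADS-box genes 1 higher and 1 lower, ribosomal proteins 4 lower, photosynthesis genes 1 lower, XTH 11 higher and 0 lower, and the S1 family 32 higher and 6 lower of 65 tested. Without ovule replicates 4 and 5, lipid transfer proteins had 5 higher, pectin methylesterase and invertase inhibitors 2 higher, photosynthesis genes 1 lower, ribosomal proteins 3 lower and ovule regulators 0 lower. The cause of these differences was not tested.

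**Figure D4:**
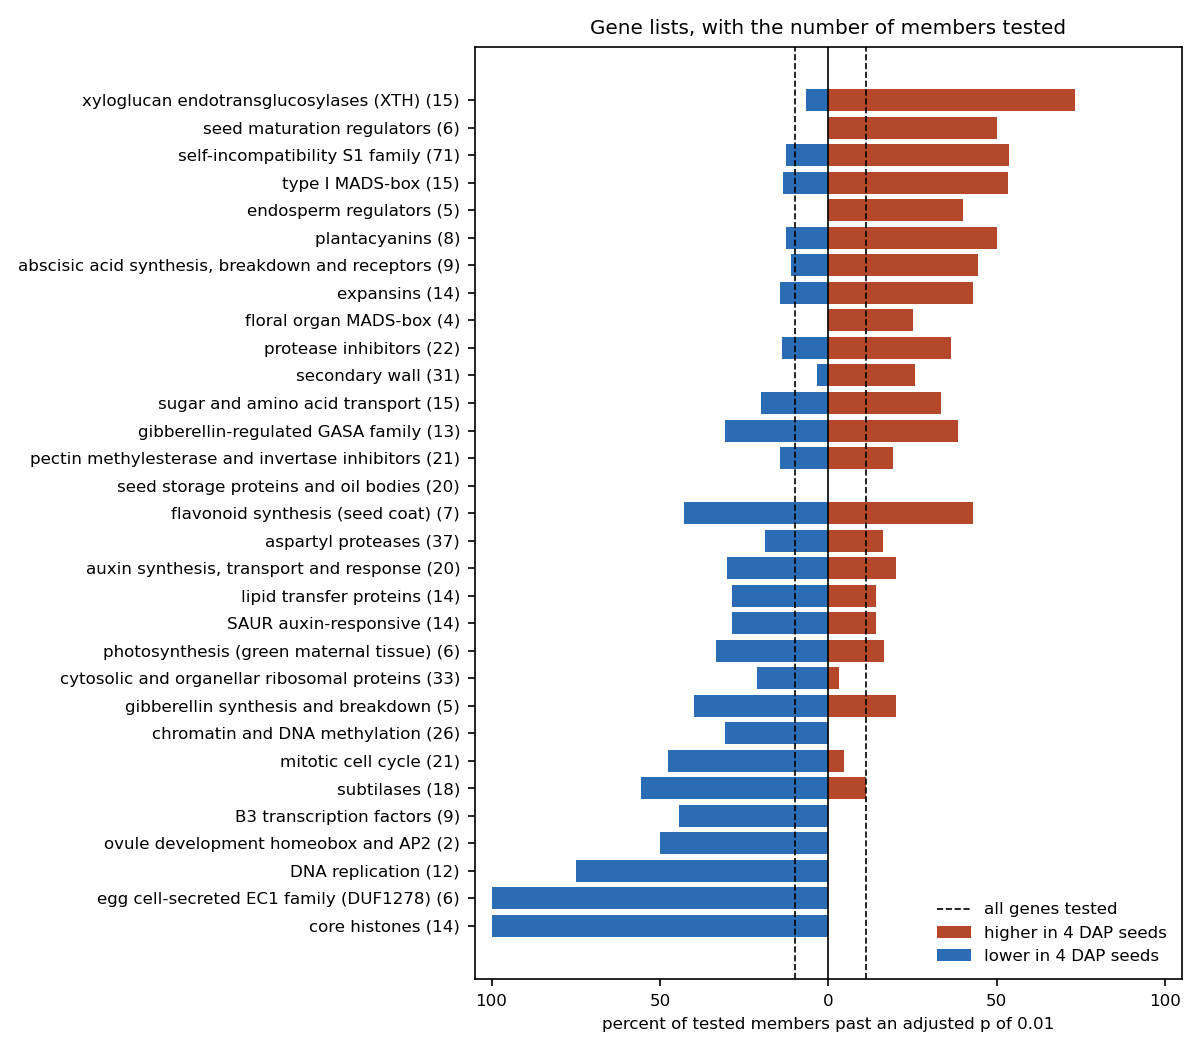
Percent of the tested members of each gene list (horizontal axis) that were higher (right, red) or lower (left, blue) in 4 DAP seeds at an adjusted p of 0.01, by list (vertical axis, number of members tested in brackets). Dashed lines mark all genes tested, 11.2% higher and 9.99% lower. Members drawn from tables the study selected on these samples can exceed these lines through that selection alone. XTH genes reach furthest to the right with 11 of 15 higher, and the EC1 family and core histones are lower in all tested members.

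By rule, the genes with the largest change in mean normalized CPM were also named. The 5 largest gains in mean normalized CPM were in Migut.L00257 (13255 ± 1792 in 4 DAP seeds, against 2510.1 ± 1289.8 in ovules), Migut.M01044 (8883 ± 935 against 311 ± 197), Migut.C00500, Migut.E01377 (5101 ± 658 against 35.5 ± 18.6) and Migut.B00316 (mean ± SD, n = 3 and 5). Migut.L00257, Migut.M01044 and Migut.E01377 carry no annotation used here, and the edgeR adjusted p of Migut.L00257, 0.000273, became 0.0102 from libraries 1 to 14 alone. The 5 largest losses were in Migut.G00957, Migut.L01143, the histone Migut.H02334, Migut.A00856 and Migut.K00114. Migut.G00957 had 1686, 2032 and 1369 normalized CPM in 4 DAP seeds, against 2916, 2751, 5445, 16328 and 11668 in ovules. Migut.L01143 had 17.1, 17.8 and 13.3 normalized CPM in 4 DAP seeds, against 937, 964, 1414, 4511 and 5129 in ovules, and the 4 DAP libraries of Migut.K00114, at 243, 254 and 216, lay below all of its ovule libraries, at 666, 890.4, 903, 1982 and 1971. The highest levels of Migut.G00957 were those of ovule replicates 4 and 5. Its adjusted p of 0.00459 became 0.0241, 0.0165 and 0.0309 without 4 DAP replicates 1, 2 and 3, 0.0119 without ovule replicate 4, 0.0474 without ovule replicates 4 and 5, and 0.117 with the maternal plant as a block. From libraries 1 to 14 alone it was 0.0121 with a log2 fold change of -0.77, against -2.21 from all libraries, and in all the call was lost in 10 of 19 alternatives. The share of counts in the 100 most counted genes was 19.6 ± 0.224% in 4 DAP seeds and 18.4 ± 5.19% in ovules (SD, n = 3 and 5), a difference of 1.19 percentage points that was within the spread (two-sided exact permutation test, p = 0.75).

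Genes that switched between the groups were counted with a mean of at least 5 normalized CPM in one and at most 1 in the other. By that rule 267 genes were on in 4 DAP seeds and off in ovules, of which 265 also passed the edgeR test. Another 199 were off in 4 DAP seeds and on in ovules, of which 183 passed. Of the 267, 207 were at 5 or more already at 2 DAP, 192 at 6 DAP and 134 at 8 DAP, while 71 were at 1 or less at 8 DAP. Of the 199, 81 were at 1 or less by 2 DAP, 140 at 6 DAP and 128 at 8 DAP. Of all genes listed 0.949% were switched on and 0.707% off. The S1 family gave 18 genes switched on from 71 members and XTH gave 8 from 21, whereas subtilases gave 7 switched off from 31 members and EC1 gave 6 from 7. The S1 and EC1 members come from tables selected on these samples, so these counts are no independent evidence. In all 18007 ± 155 genes reached 1 CPM in 4 DAP libraries and 17749 ± 673 in ovule libraries (SD, n = 3 and 5). The difference of 258 had p = 0.643 in a two-sided exact permutation test that cannot go below 0.0357.

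**Figure D5:**
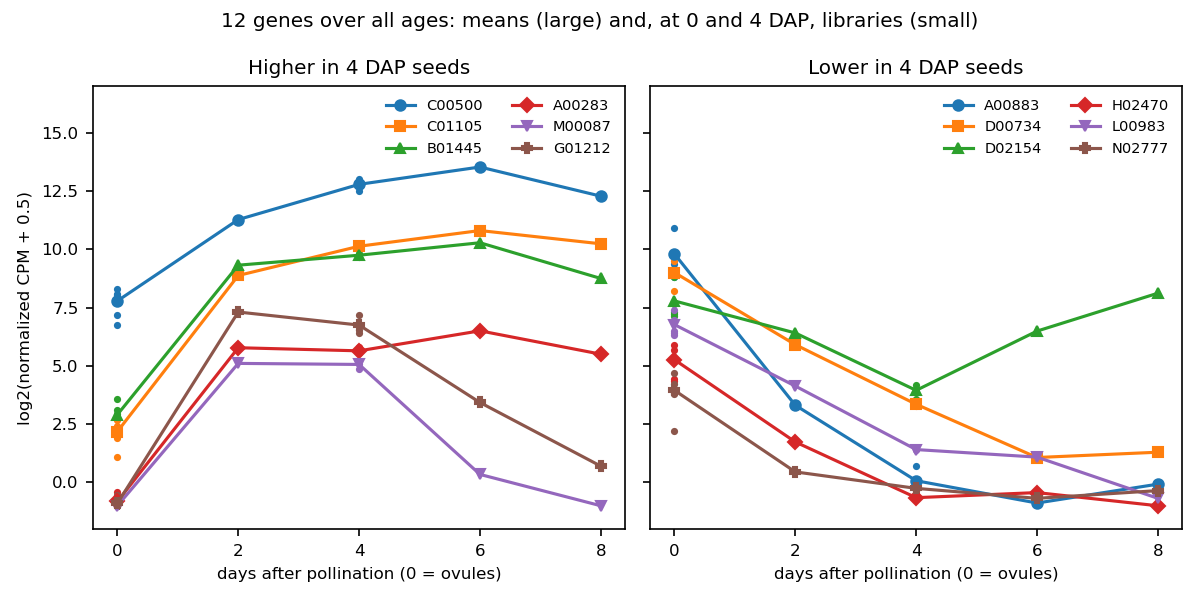
Levels of 12 genes described above over all ages, as log2(normalized CPM + 0.5) (vertical axis) against days after pollination (horizontal axis, 0 for ovules). Lines join the group means, and small points at 0 and 4 DAP are single libraries. The 6 genes on the left are higher at 4 DAP than in ovules, and Migut.M00087 and Migut.G01212 are near 0 at 8 DAP. Of the 6 on the right, the histone gene Migut.D02154 is high again at 8 DAP.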

How the data were processed

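RNA of 3 libraries of 4 DAP seeds and 5 of ovules was sequenced from strand-specific libraries in paired reads. Against a pseudo-reference of each parental line, the authors mapped the RNA reads with STAR, retained read pairs that mapped properly and to 1 place, and counted these per gene with featureCounts. The deposited values are raw counts for 28140 genes, not normalized. The strand setting of the counting is not given in the sources used here, so overlapping antisense genes are uncertain.

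From the deposited counts, genes above 1 CPM in at least 3 of the 20 libraries were kept, scaled by TMM and tested with edgeR 4.0.16 in R 4.3.3 (quasi-likelihood F test, robust, all 20 libraries fitted by age), with Benjamini-Hochberg adjustment over 20242 genes and a threshold of 0.01. The SE is the fold change divided by the root of F. A gene at 0 in 1 group was given a bound from a floor of 3 counts over that group, and a gene with 1 to 3 counts a ratio with its 95% interval, which cover counting error only. Where fewer than 1 CPM stands on few counts, depth limits the precision. Single values were tested by exact permutation of the 8 libraries, in 56 divisions. On simulated counts for this comparison (19844 genes) edgeR called 0 of 76 genes changed 2-fold, 43 of 69 changed 4-fold, 47 of 55 changed 8-fold and 0 of 19644 unchanged genes. The simulation gave a gene the same spread in every library, few changed genes and no effect of library series. In the data the median SD was 0.560 between ovule libraries and 0.174 between 4 DAP libraries. The simulated rates therefore cannot be read as error rates of the real comparison.

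Gene names were taken from the study's supplementary annotation, which covered 5051 genes, 4510 of them tested. A part of it, from 2 linkage groups, was not selected by expression. Genes were named by rule: the 8 higher and 8 lower with the widest gap between groups among genes past the threshold and a mean log2 CPM not under 3, the same among genes with an Arabidopsis symbol, the 5 largest gains and losses in CPM, members of 31 gene lists, and genes the study names. The text describes a part of these, picked with their values known. The members and lists were chosen with earlier results of these data known. Alternatives were DESeq2 1.42.0, other scaling, filters and thresholds, blocks and covariates, and leaving out libraries. Without ovule replicates 4 and 5 was chosen after seeing the data.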

Additional observations from a re-analysis of the deposited data

Results flagged for a closer look

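Of 118 values in the text compared among the 5 ovule libraries, 11 had 1 library far from the others by Dixon's ratio, which chance flags in about 1 in 20 groups. Ovule replicate 1 had 66.0 normalized CPM of the aspartyl protease Migut.G00296, where the others had 18.0 to 30.4. It also had the highest sums of subtilases, 6534 against 1878 to 2765 in the other ovule libraries, and of aspartyl proteases, 592 against 225 to 295. Ovule replicate 5 had 454 normalized CPM of the histone Migut.D02154, against 139 to 199.6, and 31.6 of the CRC homologue Migut.L01172, against 0 to 8.86. Ovule replicate 4 had an S1 family sum of 875, against 376 to 504. Ovule replicate 3 had 1.40 normalized CPM of the AGL62 homologue Migut.D01476, where the others had at most 0.111.

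The remaining values are of 1 or 2 counts in a library beside 0 in the others. They are 0.0609 normalized CPM of Migut.A00993 and 0.122 of Migut.I00636 in ovule replicate 3, 0.190 of Migut.G01212 in ovule replicate 1, and 0.0526 of Migut.H00946 in ovule replicate 2. These genes were switched on in 4 DAP seeds, and depth limits what such values show.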

How the results depend on the processing

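Counts of genes changed in 4 DAP seeds against ovules kept within 1.5 times of 4280 under DESeq2 (5592), other size factors (4291), edgeR's likelihood ratio test (5402), library totals without TMM (3810), no filter on low counts (4075), libraries 1 to 14 only (4978), the library series as a covariate (4501), a 2-fold minimum (3901) and without ovule replicates 4 and 5 (3566). Such totals do not show which genes were kept. Of the 2257 higher and 2023 lower calls, 1824 and 1444 were also called from libraries 1 to 14 only. With the library series as a covariate 1812 and 1425 were, with library totals without TMM 1680 and 1746, and under DESeq2 2247 and 2020. The count of genes changed moved to 2536 (1364 of them higher) with only the 8 libraries. That fit has fewer samples for the spread, and the cause of the fall was not tested. At a threshold of 0.05 the count was 6832, with 3467 lower. Leaving out 1 library gave 2692 to 4607 genes, 1640 to 2329 higher and 1052 to 2278 lower. The label numbers did not pair the samples (correlations of deviations 0.0453, -0.242 and 0.000754), and with the replicate number as a block 3285 genes were called (1879 higher, 1406 lower). The highest of the 15 correlations, 0.405, was that of 4 DAP replicate 3 and ovule replicate 2, which came from the same plant. A replicate block by maternal plant, in which each ovule pool was a level of its own although the pools took in plants that also gave 4 DAP replicates 1 and 2, called 2157 (1225 higher, 932 lower). Genes switched on were 152 at a minimum of 10 CPM, 140 when required in every library and 261 to 274 leaving out 1 library, against 267. Genes switched off were 77, 50 and 192 to 220, against 199. The difference in the share of the most counted genes was -0.616 percentage points for the top 1000, and -0.225 to 2.65 leaving out 1 library, negative without ovule replicate 2; the difference in genes detected was 44.6 to 420. Of 106 named genes past the threshold, 92 were called in each alternative that tested them, and 0 of the 130 named genes tested were called in the opposite direction. The sign did change in some genes that did not pass, such as Migut.A00185 (log2 fold change -0.597 to 0.391). Many of the 106 were named for a wide difference in the same libraries, so these numbers do not measure how stable the calls were at large. With only the 8 libraries 8 named genes were lost, among them the histone genes Migut.H02334 (adjusted p = 0.0105) and Migut.B01088 (0.0117) and the ASML1 homologue Migut.B01163 (0.0112), and in the block by plant 9 were, among them the ZHOUPI homologue Migut.N01183 (0.0136), the L1L homologue Migut.E01594 (0.0134) and the laccase Migut.C00171 (0.0199). The cause of these losses was not tested. Median SDs were 0.127 to 0.161 between 4 DAP libraries and 0.529 to 0.582 between ovule libraries leaving out 1 library.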
